A study of Mus musculus with 20 samples.

Results

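Chromatin accessibility on days 5, 7 and 8 of reprogramming was compared between mouse embryonic fibroblasts (MEFs) that had received NanogN70+Oct4 and MEFs that had received Nanog+Oct4. Each of the 6 libraries was 1 ATAC-seq sample of 1 day and 1 factor pair, out of 20 libraries in the series, which also held the other 5 days of both paths, 1 MEF library and 3 libraries of embryonic stem cells (ESCs). The MEFs came from embryos with an Oct4-GFP reporter and received the factors by pMXs retroviruses, so each library was a mixed population and not a clone. NanogN70 was NANOG with the BRG1-interacting N-terminal stretch of SS18 fused to its N-terminus. Oct4 was given in both paths, and the culture medium was changed after day 7 in both, so that day 8 differed from days 5 and 7 in medium. The ESC samples were grouped by their titles, because their source field named MEFs.

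A region was taken as open in a library that had a MACS peak in it, and the peaks of all 20 libraries had been merged into 335858 regions, of which 140839 were open in at least 1 of the 6 libraries. There were 3078 regions that were open in all 3 NanogN70 libraries and in none of the 3 Nanog libraries (NanogN70-only, 2.19% of the 140839), and 4261 regions that were open in all 3 Nanog libraries and in no NanogN70 library (Nanog-only, 3.03%). Both lists were small beside the 26654 regions that were open in all 6 libraries. Just outside the lists lay 7962 regions open in 2 NanogN70 libraries and no Nanog library, 2167 open in 3 and 1, 9529 open in no NanogN70 library and 2 Nanog libraries, and 3707 open in 1 and 3. The NanogN70 libraries had 83245, 80881 and 55339 peaks on days 5, 7 and 8 and the Nanog libraries 91745, 84526 and 76740, so NanogN70 day 8 had the fewest. Read depth is unknown, and a region without a peak may have been open below the limit of detection. With the 44000 peaks of highest score from each library, which gives every library the same number, 2646 of 76041 regions were NanogN70-only (3.48%) and 2001 were Nanog-only (2.63%), so that the order of the list sizes turned. No difference between the paths is read from the size of a list.

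SS18 is a subunit of the BAF complex, whose ATPase BRG1 slides or evicts nucleosomes and so lets transcription factors reach DNA. OCT4 and NANOG are DNA-binding factors of the pluripotent network that act at enhancers together with SOX2. In fibroblasts, many enhancers carry sites of AP-1 (FOS and JUN dimers) that act with TEAD and RUNX factors, and these enhancers lose accessibility when fibroblasts are reprogrammed.

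The sequences of some of the tallest regions of each list are shown because the lists differed in short motifs. Each is 200 bases around the summit on the plus strand of mm10, from the GRCm38 reference, and is named by the gene with the nearest start site. Capitals mark AP-1 (TGANTCA), OCT (ATGCAAAT), NANOG (GCCATTA), SOX-2 (ACAATGG) and CCAAT-type (CCAATCA) matches on either strand. The Nanog-only regions are those of ranks 1 to 3 by height. The NanogN70-only regions of Mettl8 and Sez6, of ranks 1 and 3, are followed by that of Dip2b, of rank 6, which was added after its sequence was seen because it holds the NANOG letters. Rank 2 is not shown. The regions of ranks 4, 5, 7 and 8, at Elmsan1, Mgll, Rgs3 and Klhdc8b, held no match to the 5 motifs. The NanogN70-only regions shown therefore hold more matches than the tallest regions as they fall.
Mettl8 (chr2:70960192-70960391): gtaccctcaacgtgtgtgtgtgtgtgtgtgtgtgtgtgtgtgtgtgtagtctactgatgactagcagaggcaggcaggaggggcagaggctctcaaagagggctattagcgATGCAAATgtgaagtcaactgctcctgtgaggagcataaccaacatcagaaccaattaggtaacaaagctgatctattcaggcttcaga
Sez6 (chr11:77947948-77948147): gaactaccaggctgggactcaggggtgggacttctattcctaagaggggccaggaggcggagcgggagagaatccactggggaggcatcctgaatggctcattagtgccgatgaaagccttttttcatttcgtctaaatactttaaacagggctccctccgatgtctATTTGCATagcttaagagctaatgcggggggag
Dip2b (chr15:100041445-100041644): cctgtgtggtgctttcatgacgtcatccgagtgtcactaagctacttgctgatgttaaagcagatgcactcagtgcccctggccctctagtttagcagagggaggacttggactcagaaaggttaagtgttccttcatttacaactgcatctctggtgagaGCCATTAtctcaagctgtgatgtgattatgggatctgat
The first 3 Nanog-only regions all held AP-1 letters, as did that of rank 6, while those of ranks 4, 5, 7 and 8 did not.
Chchd6 (chr6:89508160-89508359): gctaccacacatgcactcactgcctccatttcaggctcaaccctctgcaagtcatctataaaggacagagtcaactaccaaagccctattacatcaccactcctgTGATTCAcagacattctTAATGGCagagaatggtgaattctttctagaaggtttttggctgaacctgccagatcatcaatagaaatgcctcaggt
Mroh5 (chr15:74049617-74049816): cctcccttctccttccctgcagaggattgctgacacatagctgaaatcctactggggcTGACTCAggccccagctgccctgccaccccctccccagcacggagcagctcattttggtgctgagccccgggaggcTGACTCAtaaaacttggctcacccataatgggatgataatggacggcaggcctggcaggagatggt
Osr1 (chr12:9304009-9304208): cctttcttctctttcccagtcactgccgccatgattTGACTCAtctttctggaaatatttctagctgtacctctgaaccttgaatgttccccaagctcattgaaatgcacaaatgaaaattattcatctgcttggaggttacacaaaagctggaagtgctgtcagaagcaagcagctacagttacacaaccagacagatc
Of the NanogN70-only regions shown, Mettl8 and Sez6 held an OCT match and Dip2b a NANOG match. Among the Nanog-only regions, Mroh5 had 2 AP-1 matches, and Chchd6 had an AP-1 and a NANOG match.

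The heights of these regions were given by the summit pileup, the number of tags over the summit, which is not scaled to depth. For scale, the median pileup over the 14217 regions open in all 20 libraries was 23, 38 and 26 in the NanogN70 libraries of days 5, 7 and 8 and 28, 38 and 32 in the Nanog libraries. The region 58.1 kb from the start of Mettl8, a tRNA methyltransferase gene, had pileups of 27, 37 and 35 on days 5, 7 and 8 with NanogN70 and no peak with Nanog. In an intron of Sez6, a gene of neuronal membranes, 17.0 kb from the start, the pileups were 23, 34 and 24 with NanogN70, and the ESC libraries reached 42, 51 and 38. An intronic site of Dip2b had 29, 37 and 22 with NanogN70 and 25, 32 and 20 in ESCs. These 3 sites also had a peak in every other NanogN70 library from day 0 to day 12, and only Sez6 had a peak in a Nanog library of days 0, 1, 3, 10 and 12, with a pileup of 8 on day 12. Further regions among the 12 tallest NanogN70-only ones lay nearest to Elmsan1, Mgll, Rgs3, Klhdc8b, Odf1, Rara, Setd1b and Tle3. Rara, the retinoic acid receptor alpha gene, had 22, 35 and 21 at an intronic site that had no peak in MEFs or ESCs, and this site was later open with Nanog, at 11 on day 10 and 35 on day 12. Setd1b, which encodes a histone H3K4 methyltransferase, had 22, 33 and 21 at an intronic site that had 28, 32 and 27 in ESCs. Tle3, a Groucho-type corepressor gene, had 21, 39 and 20 at a site 94.9 kb away.

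On the Nanog side, the intronic Chchd6 region had 36, 30 and 38 on days 5, 7 and 8 and none with NanogN70, although MEFs had 12 and the ESC libraries 12, 10 and 7. The region nearest to Mroh5, 210.0 kb away, had 22, 40 and 28 and reached 42 in MEFs. Osr1, a zinc finger gene of limb and kidney mesenchyme, lay 270.3 kb from a site with 37, 27 and 31, against 20 in MEFs and none in ESCs. Timp3, an inhibitor of matrix metalloproteinases, was nearest to a site with 18, 27 and 27 (MEFs 56), and Gadd45a, a growth arrest gene, to a site with 19, 22 and 43 (MEFs 69). All 5 of these sites had peaks on days 0, 1, 3, 10 and 12 with Nanog, and none had a peak on days 10 and 12 with NanogN70. C1qtnf2, Nadk and Ddit4 had promoter sites that were closed in MEFs and ESCs, at 32, 27 and 23, at 24, 34 and 22, and at 21, 25 and 23. The other 4 of the 12 lay near Pde8a, Snn, Spc24 and Cd2, and the MEF library had a peak in each of them. Cd2 is a lymphocyte gene, and its site 7.35 kb upstream had 17, 22 and 27 with Nanog and 28 in MEFs. In the 6 libraries a peak lay at the promoters of 4 to 5 of 16 leukocyte and T lymphocyte genes and of 1 to 2 of 9 macrophage genes, against 7 and 2 in MEFs, and the part of such cells in the Cd2 value was not tested.

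The question asked next was what state these regions have in the starting and the target cells. NanogN70-only regions were more often ESC-only (closed in MEFs, open in at least 2 of 3 ESC libraries) and Nanog-only regions more often MEF-only (open in MEFs, in no ESC library). Among NanogN70-only regions 757 (24.6%, 95% exact binomial interval 23.1 to 26.2) were ESC-only and 232 (7.54%) were MEF-only. Among Nanog-only regions 125 (2.93%, interval 2.45 to 3.49) were ESC-only and 1929 (45.3%) were MEF-only. Over all 140839 regions 9.11% were ESC-only and 15.2% MEF-only. Seen from the other side, 5.90% of the 12824 ESC-only regions tested were NanogN70-only and 0.975% Nanog-only, while 1.09% of the 21353 MEF-only regions were NanogN70-only and 9.03% Nanog-only. The largest class of the NanogN70-only list was none of these, since 1686 of its regions (54.8%) were open neither in MEFs nor in any ESC library. The Nanog-only list held 1689 such regions (39.6%), and the share of all such regions tested that fell in each list was equal to 3 digits, at 2.50%. This did not hold with the 44000 highest-scoring peaks of each library, where 1900 of 39079 such regions were NanogN70-only and 1129 Nanog-only, which was 71.8% and 56.4% of the lists. Regions shared by MEFs and all 3 ESC libraries made up 6.04% and 4.67% of the lists against 20.9% of all tested. Intervals cover counting error over regions only, not a repeat of the transduction. Leaving out a library, which loosens the rule, moved the shares further than the intervals. Without NanogN70 day 8 the ESC-only share of the NanogN70-only list was 16.4%. Without Nanog day 8 the MEF-only share of the Nanog-only list was 29.5%.

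**Figure D1:**
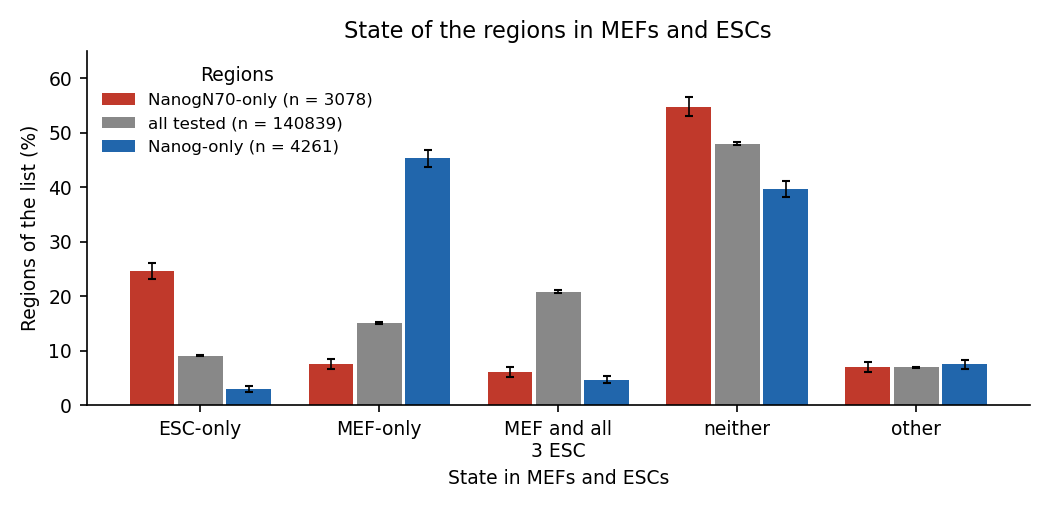
State in MEFs and ESCs of the NanogN70-only regions (red), all tested regions (grey) and Nanog-only regions (blue), as a percentage of each list with 95% exact binomial intervals. ESC-only regions make up 24.6% of the red list and 2.93% of the blue one, and MEF-only regions 7.54% and 45.3%.

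The same contrast was measured over all ESC-only and MEF-only regions of the series, whether or not they were in a list. Of 55446 ESC-only regions, 10.1%, 15.4% and 9.43% were open with NanogN70 on days 5, 7 and 8, and 7.22%, 9.08% and 7.50% with Nanog. The ranges of the paths did not overlap, and NanogN70 was higher on all 3 days, with a mean of 11.6% ± 3.28 (SD, n = 3) against 7.93% ± 1.00 (n = 3). Of 74608 MEF-only regions, 9.45%, 9.19% and 7.15% were open with NanogN70 and 15.0%, 15.3% and 19.5% with Nanog. Here too the ranges did not overlap, and the means were 8.60% ± 1.25 and 16.6% ± 2.54 (SD, n = 3 each). A two-sided exact permutation test over the 6 libraries gave p = 0.1 for each difference, which is the smallest p that 20 arrangements allow, so the design could not pass 0.05. The ESC-only difference of 3.71 percentage points was 1.82 without the NanogN70 day 7 library. With the 44000 highest-scoring peaks of each library it was 6.87, and the ranges of the paths then overlapped, with 16.6%, 24.5% and 24.8% of 24517 ESC-only regions open with NanogN70 on days 5, 7 and 8 and 12.5%, 17.0% and 15.8% with Nanog (exact permutation p = 0.2). With a score of at least 100 the difference was 3.45 percentage points (exact permutation p = 0.3). With 1 library per path and day, the 3 days stand for time points and not for repeats, and in a mixed population a larger share of cells with a region open cannot be told apart from wider opening within each cell.

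Regions shared by MEFs and all 3 ESC libraries were used as a measure of how readily a library yields peaks. Of these 31355 regions, 79.4%, 85.3% and 77.2% were open with NanogN70 on days 5, 7 and 8 and 78.6%, 83.7% and 83.2% with Nanog. The paths overlapped, with means of 80.6% ± 4.18 and 81.8% ± 2.83 (SD, n = 3 each, exact permutation p = 0.9). NanogN70 day 8, the library with the fewest peaks, was the lowest of the 6 at shared and at MEF-only regions. The MEF-only difference of -8.01 percentage points was -7.29 without this library, -5.83 without day 8 of both paths and -9.30 with the 44000 highest-scoring peaks of each library, which gives every library the same number of peaks.

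**Figure D2:**
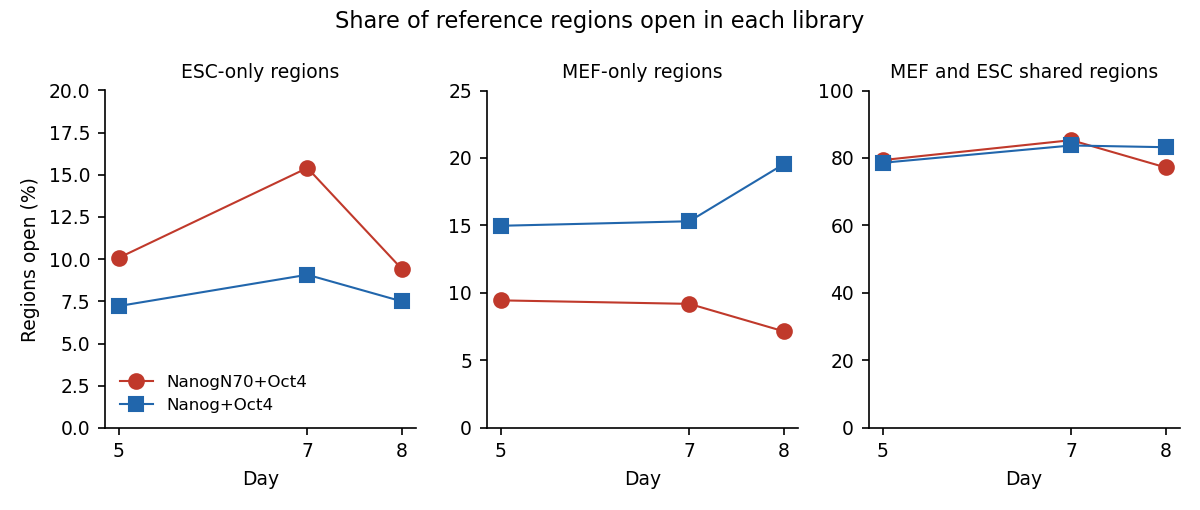
Percentage of ESC-only, MEF-only and shared regions open in each of the 6 libraries by day, with 1 point per library. NanogN70 (red circles) lies above Nanog (blue squares) at ESC-only regions and below it at MEF-only regions on every day, while the paths cross at shared regions.

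The lists were then followed in the 10 libraries of days 0, 1, 3, 10 and 12, which had no part in choosing them. NanogN70-only regions were open more often in the NanogN70 path on each of the 5 days. The shares were 29.5%, 29.0%, 39.5%, 28.4% and 37.0% with NanogN70 and 6.08%, 4.55%, 3.22%, 6.11% and 17.5% with Nanog. The means were 32.7% ± 5.17 and 7.49% ± 5.73 (SD, n = 5 days each), and an exact permutation test that exchanged the libraries within a day gave p = 0.063, the smallest it allows. Nanog-only regions were open at 46.7%, 35.6%, 21.6%, 3.43% and 6.17% with NanogN70 and at 45.1%, 51.8%, 61.3%, 47.2% and 19.5% with Nanog. On day 0 the NanogN70 value was the higher of the pair, and on the other 4 days the Nanog value was (exact permutation p = 0.125). Over all 140839 regions the NanogN70 libraries were open at 40.3%, 35.3%, 36.9%, 24.1% and 27.8% and the Nanog libraries at 28.4%, 31.2%, 33.0%, 28.5% and 26.0%. The NanogN70 day 3 library stands apart, with a median pileup of 60 at regions open in all 20 libraries and 23.3% of its open regions open in no other library. Without day 3 the differences were 22.4 and -17.9 percentage points in place of 25.2 and -22.3. With the 44000 highest-scoring peaks they were 21.5 and -35.1 (exact permutation p = 0.063 for each).

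By class, the Nanog-only regions that were MEF-only were open in the NanogN70 path at 69.6%, 50.2%, 23.3%, 2.13% and 4.61% on days 0, 1, 3, 10 and 12, and in the Nanog path at 71.2%, 70.1%, 73.4%, 61.0% and 25.3%. All MEF-only regions tested were open at 62.7%, 42.4%, 30.2%, 9.91% and 12.7% with NanogN70 and at 54.0%, 47.1%, 42.4%, 36.8% and 21.1% with Nanog. The NanogN70-only regions that were ESC-only were open with NanogN70 at 17.0%, 17.2%, 30.1%, 48.5% and 59.6%, and with Nanog at 1.59%, 2.77%, 2.11%, 7.93% and 25.5%. All ESC-only regions tested were open at 15.8%, 13.8%, 30.9%, 28.2% and 39.3% with NanogN70 and at 5.44%, 9.99%, 13.5%, 15.3% and 21.4% with Nanog, so with NanogN70 the list lay near the whole class on days 0, 1 and 3 and above it on days 10 and 12. The NanogN70-only regions open in neither reference were open with NanogN70 at 27.2%, 31.1%, 42.1%, 15.8% and 23.3%, beside 20.002%, 22.9%, 19.5%, 4.51% and 6.48% of all such regions tested. With Nanog the shares were 2.49%, 2.49%, 2.43%, 3.02% and 10.9%, beside 6.88%, 12.6%, 15.2%, 7.81% and 6.11%. Such Nanog-only regions were open at 20.6%, 22.7%, 14.8%, 1.42% and 2.72% with NanogN70. With Nanog they were open at 17.9%, 34.7%, 53.3%, 34.2% and 10.7%. Of all NanogN70-only regions, 54.0% had been open on at least 1 of days 0, 1 and 3 with NanogN70, and 42.1% were open on day 10 or 12. Of all Nanog-only regions, 58.8% had been open on at least 1 of days 0, 1 and 3 with NanogN70 as well, and 7.72% were open there on day 10 or 12. A peak on every day of its own path and on no day of the other was found for 27 NanogN70-only and 11 Nanog-only regions.

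**Figure D3:**
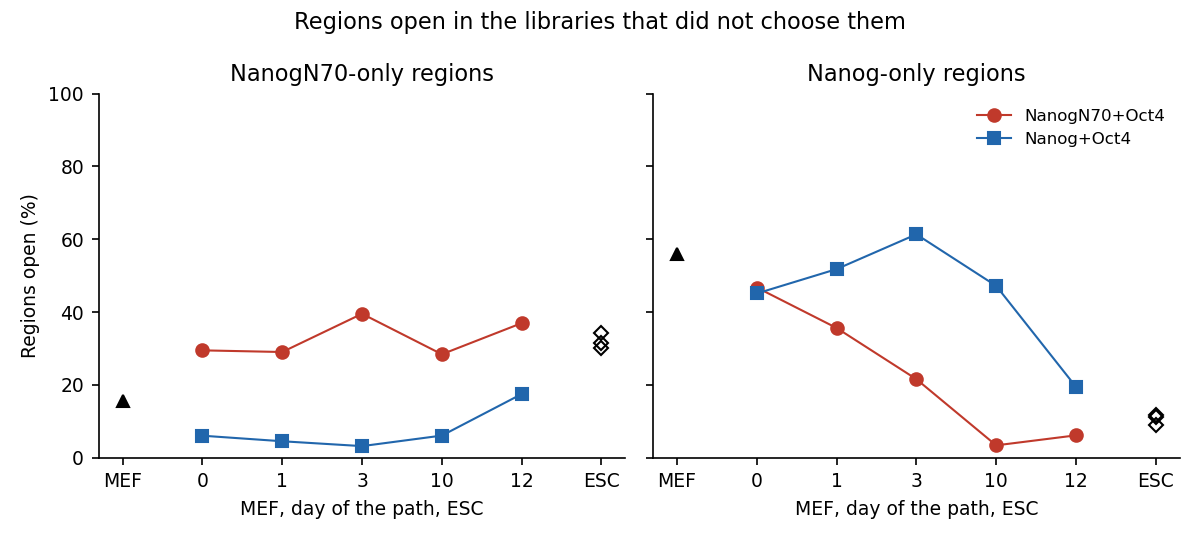
Percentage of NanogN70-only (left) and Nanog-only (right) regions open in MEFs (triangle), on days 0, 1, 3, 10 and 12 of the NanogN70 (red) and Nanog (blue) paths and in 3 ESC libraries (diamonds). NanogN70-only regions stay between 28.4% and 39.5% with NanogN70, while Nanog-only regions go from 46.7% to 6.17% with NanogN70.

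The regions of both lists lay away from promoters. Within 2 kb of a start site there were 159 NanogN70-only regions (5.17%) and 210 of 4260 Nanog-only regions (4.93%), against 14.3% of all tested. The gap was smaller within most classes. Among ESC-only regions the shares were 8.45% and 8.8%, against 9.95%, and among MEF-only regions 4.31% and 5.29%, against 6.34%. Among regions open in neither they were 3.08% and 3.02%, against 4.17%. Among shared regions, which were rarer in both lists, they were 10.2% and 12.1%, against 46.1%. Introns held 53.0% and 51.8%, and the median distance to the nearest start site was 33.5 kb and 39.6 kb. The lists differed little in base content, with a median GC of 49.3% and 47.8% over 201 bases, and the median of all tested regions was 48.8%.

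Each region within 100 kb was assigned to the gene with the nearest start site. Of 18900 genes with a tested region, 2054 (10.9%) had at least 1 NanogN70-only region and 2648 (14.0%) at least 1 Nanog-only region, and 535 had both, which is 26.0% of the former and 20.2% of the latter. Tle3 had 5 NanogN70-only regions among 31 tested and no Nanog-only region. Nsg2, a gene of neuronal vesicles, also had 5, among 15. Fgfr1, a fibroblast growth factor receptor, and Ngfr, the low-affinity nerve growth factor receptor, had 4 each and no Nanog-only region. Mir6934 and Spaca7 had 4 each as well, Rbms3 had 4 beside 2 Nanog-only regions, and Zfp503 had 3 beside 1. On the Nanog side Tns1 and Svil, genes of the actin cytoskeleton and its adhesions, had 6 regions each, of which 4 and 3 were MEF-only, and no NanogN70-only region. Dlc1, St3gal1, a sialyltransferase gene, and Pdzrn3 had 4 each and none of the other list. Gm26338 and Mir5623 had 4 beside 1, and Grik4, a kainate receptor gene, had 4 Nanog-only and 3 NanogN70-only regions.

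Of the gene lists, fibroblast genes had the largest share of members with a Nanog-only region, at 17 of 37 (45.9%) against 6 (16.2%) with a NanogN70-only region. Over their 446 tested regions, 24 (5.38%) were Nanog-only and 8 (1.79%) NanogN70-only, beside 3.03% and 2.19% of all regions. Collagen gene Col5a1 had a pair of MEF-only sites, with 11, 17 and 14 and with 10, 26 and 19 on days 5, 7 and 8 of the Nanog path and 54 and 58 in MEFs. Thy1, the surface marker of fibroblasts, had 10, 15 and 11 at a site 60.8 kb away with 26 in MEFs. Nanog-only sites were also assigned to Col1a1, Col1a2, Col3a1, Fn1, Postn, Vim, Acta2, Thbs1 and Thbs2, of which Postn also had a NanogN70-only site with 3, 8 and 5. Not all of these Nanog-only sites were MEF-only. The sites of Col3a1 and Thbs2 were closed in MEFs and ESCs, as was a site of Fn1, of Postn and of Thy1. Those of Vim and Acta2 were open in MEFs and in some ESC libraries. Snai1, a factor of the mesenchymal state, had a Nanog-only site with 9, 14 and 23 (55 in MEFs, 8, 11 and 12 in ESCs) and a different, ESC-only site with 7, 12 and 9 in the NanogN70 path. Zeb2, of the same kind, had 16, 25 and 13 with NanogN70 at an ESC-only site where the ESC libraries had 20, 18 and 15, a further NanogN70-only site at its promoter with 10, 21 and 7, and 2 Nanog-only sites with 4, 7 and 11 and with 5, 5 and 5. Tead1 had NanogN70-only sites with 8, 18 and 12 and with 4, 8 and 16 and a MEF-only site of the Nanog list with 6, 12 and 6. With NanogN70, Fbn1 had 8, 12 and 9 and Meox1 had 8, 12 and 10.

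Of 30 pluripotency genes, 6 (20%) had a NanogN70-only region and 4 (13.3%) a Nanog-only region, beside 10.9% and 14.0% of all genes. Over their 228 tested regions the shares were 3.95% and 1.75%, beside 2.19% and 3.03%. Tdgf1, which encodes the NODAL co-receptor Cripto, had 16, 17 and 14 at a site 1.37 kb upstream of its start, no peak in MEFs and 30, 38 and 35 in ESCs. This site had no peak on any other day with Nanog, and with NanogN70 it had a pileup of 79 on day 3 and 13 on day 12. Otx2, a homeobox gene of the primed state, had 7, 13 and 8 at an ESC-only site 80.5 kb away. Klf4, a reprogramming factor gene, had 5, 8 and 7 at an ESC-only site 68.0 kb away where the ESC libraries had 29, 34 and 34. Trim71 had 5, 10 and 8 and L1td1 8, 8 and 7, and further sites of Otx2 and Klf4 had 4, 8 and 5 and 7, 6 and 8. These sites were closed in MEFs and in ESCs. Esrrb had a site with 7, 11 and 5, and another with 4, 6 and 9 that was shared by MEFs and ESCs. The 4 Nanog-only sites, at Tfcp2l1, Mycn, Epcam and Klf5, were likewise closed in MEFs and in ESCs, with 8, 10 and 12 at Tfcp2l1. At promoters, 21, 24 and 26 of 33 pluripotency genes had a peak with NanogN70 on days 5, 7 and 8 and 20, 22 and 22 with Nanog, against 21 in MEFs and 32 to 33 in ESCs.

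Of 26 genes of AP-1 and TEAD-YAP factors, 7 (26.9%) had a NanogN70-only and 9 (34.6%) a Nanog-only region, and 5 had both, beside 10.9% and 14.0% of all genes with each. Over their 316 tested regions the shares were 3.16% and 3.80%, near the 2.19% and 3.03% of all regions. Fos had a NanogN70-only site 5.88 kb upstream of its start with 17, 21 and 15, closed in MEFs and ESCs, and a Nanog-only, MEF-only site 53.3 kb away with 6, 7 and 13. Bach2, a repressor related to AP-1, had 3 NanogN70-only sites, each closed in MEFs and ESCs, with 11, 11 and 9 at the most even of them, and 2 Nanog-only sites. Ankrd1 and Vgll3, targets and cofactors of TEAD, had MEF-only sites of the Nanog list with 10, 10 and 16 and with 10, 14 and 8. Maff and Atf3 had NanogN70-only sites with 8, 12 and 11 and with 7, 14 and 13, and Atf3 also had 2 Nanog-only sites with 5, 5 and 8 and with 7, 5 and 8.

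In the TGF-beta list, 6 of 34 genes (17.6%) had a NanogN70-only and 8 (23.5%) a Nanog-only region. Over their 370 tested regions the shares were 1.89% and 2.43%, below the 2.19% and 3.03% of all regions. Smad6, an inhibitory SMAD gene, had NanogN70-only sites with 11, 21 and 12 and with 16, 19 and 8 and a Nanog-only site with 6, 7 and 6. Tgfbr3, a co-receptor gene, had 12, 17 and 12 with NanogN70 and, at another site, 5, 6 and 9 with Nanog. Id1, a target of BMP signals, had 15, 18 and 21 with Nanog at a site 3.32 kb from its start, and Tgfbr2 and Smad3 had MEF-only sites of the Nanog list. Hox genes had 3 of 38 in each list, with Hoxc6, Hoxb8 and Hoxa11 on the Nanog side. The other counts, NanogN70-only first, were 1 and 2 of 19 SOX genes, 1 and 3 of 27 BAF subunit genes, 1 and 2 of 7 endothelial genes, 1 and 2 of 19 neural genes, 1 and 3 of 22 epithelial genes, 1 and 0 of 7 skeletal muscle genes, 0 and 2 of 12 leukocyte and T lymphocyte genes and 0 and 0 of 8 macrophage genes. Sox5, the only SOX gene on the NanogN70 side, had a pileup of 17 in each of the 3 libraries at an ESC-only site, and it also had a Nanog-only site at its promoter with 6, 6 and 8. In a list of this size a share near the 10.9% and 14.0% of all genes is no result about its members.

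Motifs were searched within 100 bases of each summit on both strands. AP-1 letters (TGANTCA) were found in 1556 Nanog-only regions (36.5%) and in 208 NanogN70-only regions (6.76%), against 13.8% of all tested. The NANOG letters (GCCATTA) had the opposite order, in 240 NanogN70-only regions (7.80%) and 44 Nanog-only regions (1.03%), against 2.77%. OCT letters (ATGCAAAT) were in 5.82% and 2.65% of the lists against 3.15%, and SOX-2 letters (ACAATGG) in 5.00% and 2.44% against 3.16%. The CCAAT-type letters (CCAATCA), named for NFY, were in 6.08% and 1.64% against 3.47%, and homeobox letters (TAATTA) in 9.84% and 3.47% against 5.68%. An E-box (CAGCTG) was in 28.6% of Nanog-only and 17.3% of NanogN70-only regions against 18.4%. The CTCF motif was rarer in both lists than in all regions, at 0.455% and 0.751% against 1.84%. TEAD letters (GGAATG) lay close together, at 13.4%, 14.1% and 12.5%. A match to these letters is a description of the sequence and not a site of binding, and the NANOG and homeobox letters share ATTA, so that matches can overlap.

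Within regions of 1 state the AP-1, NANOG and OCT letters kept the order of the lists, although the OCT shares of MEF-only regions were nearly equal. Among MEF-only regions, AP-1 letters were in 53.4% of the 1929 Nanog-only and 15.9% of the 232 NanogN70-only regions, against 37.7% of all MEF-only regions tested. Among regions open in neither MEFs nor ESCs the shares were 22.4% and 6.41%, against 11.1%, and among ESC-only regions 10.4% and 4.36%, against 5.98%. Among shared regions they were 23.7% and 9.68%, against 6.42%, so that both lists were above that class. The NANOG letters were in 9.25% of NanogN70-only and 1.24% of Nanog-only regions open in neither, against 3.63%. In the MEF-only class they were in 8.62% and 0.933%, against 2.30%, and in the ESC-only class in 5.81% and 3.20%, against 2.76%, so that there both lists were above the class. Among ESC-only regions the OCT letters were in 6.87% of 757 NanogN70-only and 4.80% of 125 Nanog-only regions, against 3.90%, and among MEF-only regions in 1.72% and 1.71%, against 1.71%. They were in 6.17% and 3.97% of the regions open in neither, against 4.43%, and in 4.30% and 0.505% of shared regions, against 1.20%. The motif shares were not tested, since regions are not replicates.

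**Figure D4:**
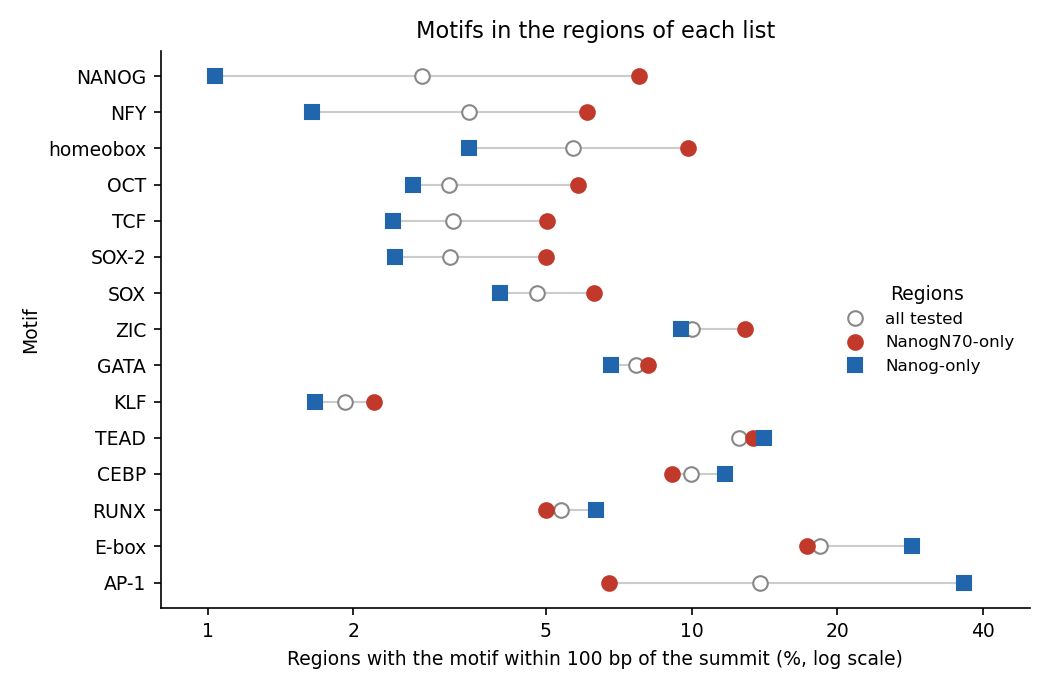
Percentage (log scale) of NanogN70-only (red circles), Nanog-only (blue squares) and all tested regions (open circles) with each motif within 100 bp of the summit. Among the motifs plotted, the widest gaps are at NANOG, with 7.80% against 1.03%, and at AP-1, with 6.76% against 36.5%.

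Regions open in all 6 libraries were outside both lists, and the heights of their summits were compared. Log2 pileups were centred on the median of each library at regions open in all 20 libraries and tested with limma over the 26647 of these regions on reference chromosomes. Summits were higher with NanogN70 at 283 regions (1.06%) and lower at 143 (0.537%) at a Benjamini-Hochberg adjusted p below 0.05. The fit took days 5, 7 and 8 of a path as replicates, so its p-values do not measure a repeat of the transduction. With a pileup of at least 10 in all 6 libraries, 29 of 14513 regions were higher and 13 lower. With day as a block the counts over the 26647 regions were 1030 and 710. Without the NanogN70 day 7 library they were 42 and 14, without NanogN70 day 5 they were 107 and 109, without NanogN70 day 8 they were 164 and 75, and without Nanog day 7 they were 147 and 61. With quantile normalization the split was 249 and 195, and with centring on regions shared by MEFs and ESCs it was 241 and 205, so the split between higher and lower depended on the scaling and on the NanogN70 day 5 library.

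By state, the shares of summits that moved were unequal. Of 1024 ESC-only regions open in all 6 libraries, 67 (6.54%) were higher with NanogN70 and 2 (0.195%) lower. Of 2144 MEF-only regions, 37 (1.73%) were higher and 66 (3.08%) lower. Of 20003 shared regions, 105 (0.525%) were higher and 43 (0.215%) lower. The median log2 difference was 0.34 at ESC-only, -0.12 at MEF-only and 0.04 at shared regions. AP-1 letters within 25 bases of the summit were in 13.3% of the lower, 0.707% of the higher and 2.70% of all regions.

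The higher region with the lowest p lay in an intron of Rasgef1c, a Ras exchange factor gene, with pileups of 32, 43 and 37 with NanogN70 and 4, 8 and 12 with Nanog (5.84-fold, log2 2.54 ± 0.34 SE, limma adjusted p = 0.000793). This region was MEF-only. Lmx1b, a LIM homeobox gene, had 40, 54 and 24 against 7, 11 and 10 in an intron (4.66-fold, limma adjusted p = 0.00102). Dynll2, a dynein light chain gene, lay 27.8 kb from an ESC-only region with 40, 58 and 40 against 14, 23 and 10. Slmap had 41, 62 and 34 against 17, 11 and 14 in an intron that was ESC-only. The other 6 of the 10 higher regions with the lowest p lay nearest to Fam186b, Cdh5 (227.5 kb away), Mir6380, 1700021F07Rik, Arl4d and Trabd2b.

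In the other direction, Stk38, a kinase gene of the NDR family, had 6, 10 and 11 with NanogN70 and 35, 51 and 62 with Nanog at a shared region 10.5 kb away (4.82-fold lower, limma adjusted p = 0.000793). Vav3 had 7, 8 and 6 against 39, 47 and 33 at a MEF-only region (4.94-fold lower, limma adjusted p = 0.000793). Triobp, which encodes an actin-binding protein, had 10, 13 and 8 against 37, 60 and 39. Vwa3b, Trim56, Apon, Hsd17b3, Dapp1, Mctp2 and AL607142.1 followed, with adjusted p up to 0.00456 by limma. In each of these 20 regions the 3 libraries of 1 path lay apart from the 3 of the other, which the choice by lowest p makes likely. Of the 20, only the regions at Dynll2 and Slmap had a pileup of at least 10 in all 6 libraries.

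**Figure D5:**
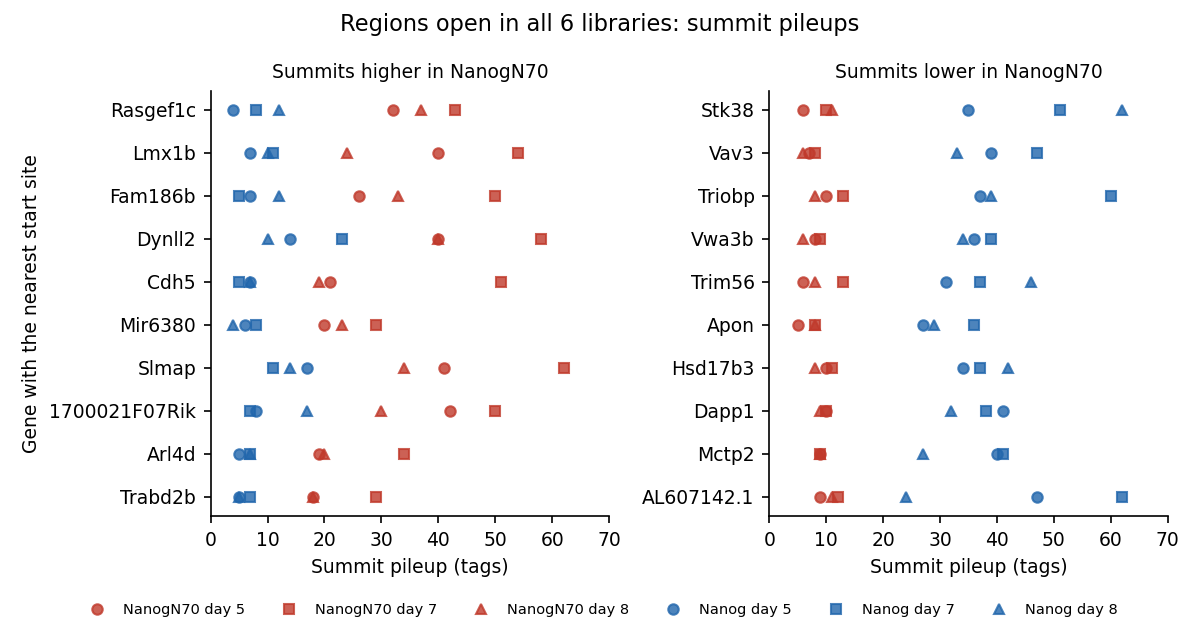
Summit pileup in tags, not scaled to depth, in the NanogN70 (red) and Nanog (blue) libraries of days 5, 7 and 8 at the 10 regions with the lowest limma p in each direction. At Rasgef1c the red points lie between 32 and 43 and the blue ones between 4 and 12, and at Stk38 the red points lie between 6 and 11 and the blue ones between 35 and 62.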

How the data were processed

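ATAC-seq peaks of 20 mouse libraries were used, 6 of them for the main comparison. The members and gene lists were chosen with earlier results of these data known. The authors trimmed reads with Trim Galore 0.6.4, aligned them to mm10 with Bowtie2 2.4.5, filtered them with SAMtools 1.16.1 and called peaks per library with MACS 1.4.2, without a shift model and keeping duplicates. The score the authors deposited for a peak is 10 times the negative log10 of the MACS p-value, with a minimum of 50. The signal the authors deposited for a summit is its tag pileup (coverage), not scaled to depth. How many reads each library had is not given in the sources used here.

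Peaks of the 20 libraries were merged where they shared at least 1 bp in Python 3.11.15 with pandas 2.3.3. Last peak ends lay inside the GRCm38 lengths on all 21 chromosomes, and 42 tested regions on 14 other sequence names were left out of annotation and motifs. Start sites were those of protein-coding and miRNA transcripts of GENCODE M21. Heights were tested with limma 3.58.1 in R 4.3.3 on log2 pileup. Libraries of the same day deviated together (correlation across regions 0.183, 0.150 and 0.297 for days 5, 7 and 8), so a fit with day as a replicate block is given too, and the pairing comes from the day in the titles. Scripts were tested on simulated data. Named were the 12 tallest regions per list (lowest pileup over the 3 libraries divided by the library median), the 8 genes with most regions, up to 4 members per gene list and side, and the 10 height differences with the lowest p each way. Some items that the rule names are not reported here. Others named in the text were chosen after their values were seen. The alternatives were the 44000 highest-scoring peaks, a score of at least 100, summits extended by 100 bp, merging of the 6 libraries alone, other ESC rules, other scalings and leaving out libraries or days.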

Additional observations from a re-analysis of the deposited data

Results flagged for a closer look

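At regions shared by MEFs and all 3 ESC libraries the daily differences did not have the same sign. The share open with NanogN70 minus that with Nanog was 0.807 percentage points on day 5, 1.57 on day 7 and -5.99 on day 8. There is 1 library per path and day, so this difference between days was not tested. The NanogN70 day 8 library had 55339 peaks, the fewest of the 6, and the medium had been changed after day 7 in both paths. With the 44000 highest-scoring peaks, which gives every library the same number, the shares were 91.1% against 90.04% on day 5, 94.9% against 94.4% on day 7 and 94.6% against 94.4% on day 8, so that NanogN70 was the higher on all 3 days and the signs no longer differed. The part of the medium was not tested.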

How the results depend on the processing

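With the 44000 highest-scoring peaks the Nanog-only list fell to 2001 regions, the ESC-only share of the NanogN70-only list was 19.6%, the MEF-only share of the Nanog-only list 36.4% and the promoter shares 6.27% and 6.40%, and the difference at shared regions reversed to 0.565 percentage points. With a score of at least 100 the lists held 1725 and 2356 regions, with promoter shares of 6.14% and 6.83%. An alternative chosen after seeing the data asked for a top-44000 peak in the 3 open libraries and no peak of any score in the others, and gave 1239 NanogN70-only and 927 Nanog-only regions, of which 56.0% were MEF-only. With summits extended by 100 bp the MEF-only share of the Nanog-only list was 43.0%, and with ESC-only defined by all 3 ESC libraries the ESC-only share of the NanogN70-only list was 20.5%. Leaving out a library or a day loosens the rule of 3 against 3. The NanogN70-only list then held 3551 to 9340 regions (5526 without NanogN70 day 5, 8119 without NanogN70 day 8) and the Nanog-only list 4872 to 9635 (7299 without Nanog day 5, 8639 without Nanog day 8). The ESC-only share of the former was 16.4% to 29.2% and the MEF-only share of the latter 29.5% to 46.6%. The difference at shared regions ranged from -3.53 to 1.19, at ESC-only regions from 1.82 to 4.81 and at MEF-only regions from -9.25 to -5.83. Summits of different height numbered 426, with day as a replicate block 1740, with a pileup of at least 10 in all 6 libraries 42, and 56 to 389 when a library was left out. With the pairing by day as a replicate block, that is with libraries exchanged within a day, the ESC-only and MEF-only differences had an exact permutation p = 0.25, the smallest that 3 days allow, so no call was possible there. Unadjusted, 3885 of the 26647 regions had p below 0.05. The cause of these shifts was not tested. The directions at ESC-only and MEF-only regions, and of the mean differences over the other days, were the same under every alternative run for them. On day 0 alone, Nanog-only regions were open at 46.7% with NanogN70 and at 45.1% with Nanog. Depth is unknown, which limits any statement that a region was closed.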

Other observations

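Differential regions also came in runs. Zbtb40 and its neighbour had 6 Nanog-only regions, 4 of them MEF-only, among 18 tested regions over 111.4 kb of chromosome 4. Ncam1, a neural adhesion molecule gene, had 4 Nanog-only regions within 57.3 kb, and Ptx3, an extracellular matrix gene of the innate immune response, and its neighbour Veph1 together had 4 within 53.8 kb, and all of these were MEF-only. Sh3bp4 had 4 NanogN70-only regions within 33.0 kb, all closed in MEFs and ESCs, beside 1 Nanog-only region. The kainate receptor gene Grik4 and its neighbour had 6 NanogN70-only regions and 2 Nanog-only regions among 25 tested over 153.2 kb, and all 6 were closed in MEFs and ESCs. These runs were chosen after their values were seen and were not tested.

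On the X chromosome 1.39% of 2662 tested regions were NanogN70-only and 1.80% Nanog-only, the lowest share of each list on any chromosome other than Y.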
